A study of Mus musculus with 12 samples.

Results

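Zinc finger protein genes with symbols from Zfp500 to Zfp999 were followed through the first hours after C17.2, a permanent line of mouse neural progenitors, was moved into a differentiation medium. The members were the entries of the authors' gene table whose symbol has this form and that stood above the lowest value of a library, which marks a gene without a read, in at least 6 of the 12 libraries. Of 203 entries with such a symbol, 166 met this rule, out of 35321 genes in the table, and another 155 numbered Zfp genes met the same floor. The rule itself uses the symbol and detection alone.

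Per the labels, the C17.2 line comes from CD1 x C57BL/6 mice, and all cells grew in DMEM/F12 with 10% fetal bovine serum. Differentiation was induced by Knockout DMEM with GlutaMAX and N2 supplement, a recipe that lists no serum. Mitochondria and nuclei were isolated at 0, 1 and 2 h and their RNA was sequenced, which gave 6 groups of 2 libraries, and no group stayed in the growth medium or received fresh growth medium at 1 or 2 h. Effects of differentiation, of serum loss and of the medium change cannot be told apart, and since nothing beyond the word biological says that the 2 libraries of a group came from separate cultures, p-values measure only the spread between libraries.

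Most of these genes encode C2H2 proteins, in which short loops held by a zinc ion line up as a row of fingers that reads DNA. Many also carry a KRAB domain, which binds the corepressor Trim28 and through it recruits Setdb1, the enzyme that writes the repressive histone mark H3K9me3. In early embryos and in neural progenitors this route is known for silencing retroelements. Other members are known for roles in ribosome assembly, translation quality control or RNA handling, and several are known regulators of neural development.

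All 12 libraries together spanned 30.3 to 42.3 M total reads, of which 4564148 to 9252152 lay in genes. The share in genes fell from 20.0% ± 1.63 (SD, n = 2) in mitochondria at 0 h to 15.9% ± 0.246 (1 h) and 15.5% ± 0.451 (2 h), and in nuclei from 21.7% ± 0.311 to 13.9% ± 0.0710 and 15.0% ± 0.671. On the deposited scale, which is relative to all reads of a library, the median gene fell by 0.22 (1 h) and 0.28 (2 h) on the log2 scale in mitochondria and by 0.64 (1 h) and 0.51 (2 h) in nuclei. Fold changes are therefore given after quantile normalization, as changes relative to the other genes, with counts on the deposited scale beside them. At 0 and 1 h, 1 library of each group (replicate 2 of mitochondria 0 h, replicate 1 of the other 3 groups) stood apart from its replicate, and the labels name no batch. Over all genes the chi-square per gene between replicates was 8.95 to 12.4 in these groups, and 1.92 and 1.99 at 2 h. Over the members it was 1.66 to 2.33 in all groups. Among the members only 2 of 166, Zfp982 and Zfp991, were lower by over 1 in these 4 libraries, against 497 of 21078 tested genes. Higher by over 1 were 0 members and 372 tested genes. Of the progenitor genes, Nes (3535 to 6733 reads) and Vim (10771 to 20295) were high, while Pax6 and Prom1 did not exceed 3 reads. The neuronal markers Dcx and Stmn2 had no read in any library, and Rbfox3 and Snap25 at most 1. Tubb3 and Map2 of the same neuronal list had 144 to 351 and 178 to 491 reads. Sox10, an oligodendrocyte-lineage gene, had 721 to 1642 reads and Col1a1, a fibroblast collagen, 39421 to 88170. The 10 progenitor markers summed to 721 to 787 RPM over the libraries of 0 h and to 503 to 574 at 2 h, and the 6 neuronal ones, 4 of them never above 10 reads, to 17.5 to 21.3 and 13.8 to 18.0. In mitochondria the 5 fibroblast markers went from 3214 and 3063 RPM to 1930.4 and 1817, and in nuclei from 2160.2 and 2151 to 1533 and 1424. The 5 oligodendrocyte-lineage markers went from 102 and 98.2 to 81.1 and 75.2, and from 94.1 and 93.1 to 63.1 and 62.1. All 4 sums were lower at 2 h than at 0 h in each fraction on the deposited scale, and the part of marker levels in the member values was not tested. Mitochondrially encoded transcripts held 2.28 to 4.41% of the transcript table's FPKM in mitochondria and 1.93 to 3.61% in nuclei, so a value for mitochondria describes that preparation and is no evidence that an RNA sits inside the organelle.

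The members lay on 18 chromosomes, with 45 on chromosome 7 and 25 on chromosome 17. Neighbouring members at most 500 kb apart formed 15 clusters of at least 3, which held 87 of the 166. The largest cluster, chr17:21383748-22867134 on GRCm38, held 14 members from Zfp677 to Zfp945, and the cluster on chromosome 4 held 10. A KRAB signature was found in the longest coding sequence of 92 members, 62 of them inside clusters, and was not found in the other 74. It is a short fixed pattern, so the 74 may include proteins with a KRAB domain of another form. The median protein had 10 fingers, with a range from 0 to 33, and 5 members had no finger of the pattern searched. Members with the signature are called KRAB members below. They had a median of 12 fingers and were read less deeply (median of mean reads 33.6 per library) than the others (8 fingers, 142 reads). Within clusters, near-identical copies can share reads, so values of closely related KRAB members are uncertain. Another gene of the table overlaps 64 of the members.

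Per kb of exon, on the deposited scale and with no statement of whether intron reads were counted, the highest mean levels were those of Zfp703 (4.71 RPM per kb, where RPM is the authors' reads scaled to the library's total) and Zfp598 (4.62), followed by Zfp706 (4.0), Zfp869 (3.22) and Zfp609 (3.18). The lowest was that of Zfp534 (0.00813), which stood just inside the rule with reads in 6 libraries and 10 reads in all. Just outside it, with reads in 5 libraries, stood Zfp986, Zfp988, Zfp978, Zfp977 and Zfp781 with 9 to 16 reads in all, and 18 entries had no read in any library. Above the floor in every library stood 157 members. The median member had a mean of 56.0 reads per library, and 55 members reached 100. Together the members took 0.316% ± 0.00680 (SD, n = 2) of the gene reads in mitochondria before the switch, 0.324% ± 0.0127 after 1 h and 0.344% ± 0.00187 after 2 h, and in nuclei 0.363% ± 0.0107, 0.336% ± 0.00491 and 0.368% ± 0.00104. The share in mitochondria at 2 h lay above both libraries of 0 h, while in nuclei the lowest share was that at 1 h.

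The main question the design sets is what changed after the switch. At 2 h in mitochondria 16 members rose and 3 fell against 0 h by the limma test (Benjamini-Hochberg adjusted p under 0.05), that is 9.64% and 1.81% of members, where 4.66% of all 21078 tested genes rose and 6.78% fell. Nuclei had 13 rises and 6 falls at 2 h, or 7.83% and 3.61%, beside 4.65% and 5.55% of all tested genes. At 1 h fewer passed: 5 rose and 1 fell in mitochondria (background 2.24% and 3.74%), and 2 rose and none fell in nuclei (1.01% and 0.816%), where 23 members were lower at an unadjusted p under 0.05 and limma voom on recovered reads called 3 falls. From 1 to 2 h, 3 rose and none fell in mitochondria (1.61% and 2.12%; 9 were lower at an unadjusted p under 0.05, and voom called 0), and 3 rose and 1 fell in nuclei (1.16% and 1.27%). At an unadjusted p under 0.05, 11 members were higher in nuclei at 1 h, and 18 in mitochondria from 1 to 2 h. Shares of all tested genes are not given for the unadjusted and voom counts, so these are not set against a background. Over all time comparisons 30 members (18.1%) passed at least one test, close to the 19.1% of all tested genes that did.

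The median member changed by 0.19 on the log2 scale at 2 h in mitochondria and by -0.02 in nuclei, where quantile normalization sets the median tested gene near 0. Depth went with being called: of the 55 members with at least 100 mean reads, 11 rose in each fraction at 2 h, or 20.0%. Of all tested genes of that depth, 8.77% rose in mitochondria and 8.63% in nuclei. With the falls, 14 of these members were called in mitochondria and 15 in nuclei. The shares of all tested genes of that depth that fell are given below with the silencing machinery. The deposited scale, on which most genes fell, gave other counts: 6 members rose and 18 fell at 2 h in mitochondria, and 2 rose and 55 fell in nuclei. The same scale gave, at 1 h, counts of 2 and 23 in mitochondria and 1 and 97 in nuclei. From 1 to 2 h they were 2 and 0 in mitochondria and 5 and 0 in nuclei. The number of falls called in nuclei against 0 h therefore depends on the scaling. On the deposited scale the median member stood at -0.29 (1 h) and -0.13 (2 h) in mitochondria, where the median tested gene stood at -0.22 and -0.28. In nuclei the median member stood at -0.76 and -0.55, and the median tested gene at -0.64 and -0.51. The shares of all tested genes called on that scale are not given here, so deposited-scale counts, here and below, are not set against a background. Called or not, 91 members were lower and 75 higher in nuclei at 1 h after quantile normalization.

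**Figure D1:**
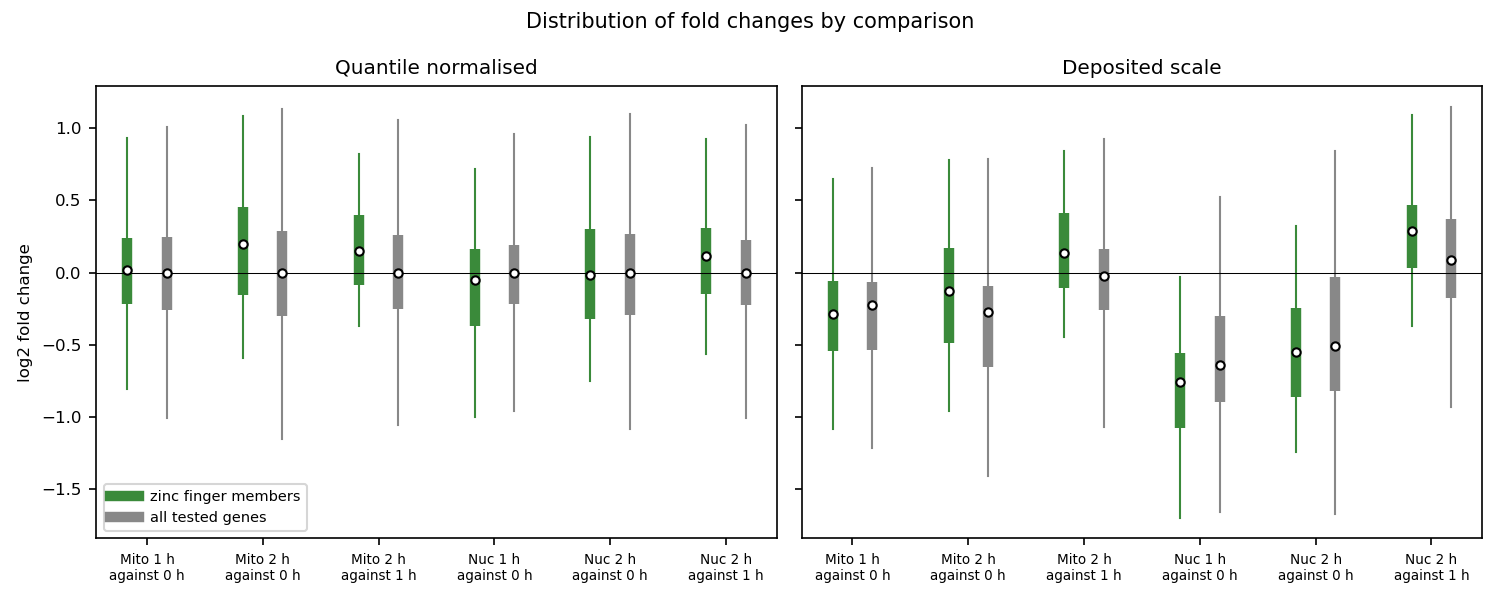
Log2 fold change of the 166 members (green) and of all 21078 tested genes (grey) in each time comparison, after quantile normalization (left) and on the deposited scale (right). Thick bars span the 25th to 75th percentile, thin lines the 5th to 95th, and circles mark the median: in nuclei at 1 h the member median is -0.05 on the left and -0.76 on the right.

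Rises at 2 h in both fractions were shared by 9 members: Zfp507, Zfp532, Zfp593, Zfp623, Zfp639, Zfp703, Zfp768, Zfp786 and Zfp948. They are 56.3% of the 16 rises in mitochondria and 69.2% of the 13 in nuclei, while over all tested genes the shared rises were 50.1% and 50.2%. One member, Zfp638, fell in both. The change had the same sign in both fractions for 111 of 166 members (66.9%) and for 63.1% of all tested genes, a similar share. The fractions have separate 0 h libraries.

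**Figure D2:**
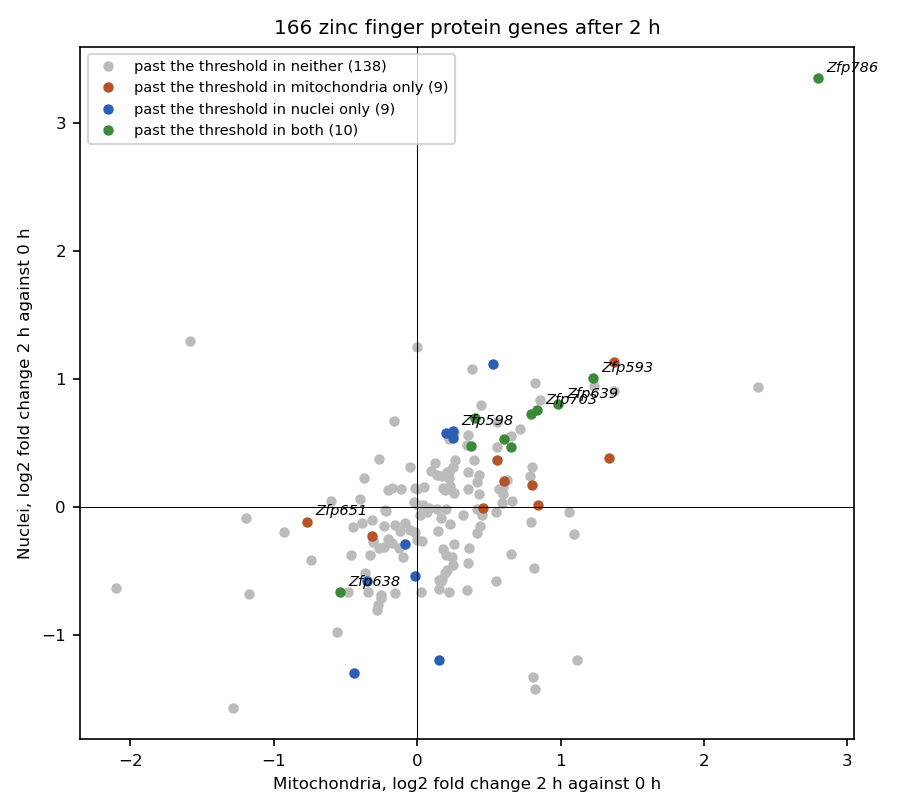
Log2 fold change at 2 h against 0 h of each of the 166 members, mitochondria on the horizontal axis and nuclei on the vertical axis, coloured by where the change passed the limma threshold. The 9 shared rises lie in the upper right, with Zfp786 at 2.80 and 3.35, and Zfp638 in the lower left at -0.54 and -0.67.

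Among the neural and developmental regulators, 3 of 16 members rose and 1 fell at 2 h in each fraction (18.8% and 6.25%, against the background of 4.66% and 6.78% in mitochondria and 4.65% and 5.55% in nuclei, or of 8.77% and 8.63% rises among genes of at least 100 mean reads). By deposited values 1 rose and 6 fell in mitochondria, and none rose and 10 fell in nuclei. The member with the smallest p in both was Zfp703. Zfp703 (chr8:26977325-26981461, plus strand) encodes a corepressor of the NET family, whose human counterpart is a known oncogene of luminal breast cancer. Its normalised RPM in mitochondria was 12 and 12.9 at 0 h, 14.4 and 14.6 at 1 h, then 22.9 and 21.6 at 2 h. In nuclei it was 12.4 and 11.3, then 15.3 and 17.3, then 18.9 and 21.3. In each fraction the libraries of 0, 1 and 2 h did not overlap, and the order was 0, 1, 2 h. The rise at 2 h was 0.84 ± 0.09 in mitochondria (limma standard error, adjusted p = 2.2e-04) and 0.76 ± 0.09 in nuclei (adjusted p = 4.5e-04), and both calls held when any one library was left out. Between 1 and 2 h the rise in mitochondria was 0.62 ± 0.09 (adjusted p = 0.0040). On the deposited scale the 2 h rises were 0.47 (adjusted p = 0.0018) and 0.15 (adjusted p = 0.199), and the 1 h difference in nuclei, 0.45 (adjusted p = 0.0295) after normalization, was -0.25 (adjusted p = 0.0279). Within the libraries outside the 4 that stood apart, which leave 1 library at 0 h in each fraction, the 2 h differences were 0.89 and 0.82. In the authors' transcript table its FPKM in mitochondria was 3.99 and 3.86 at 0 h, 3.52 and 3.74 at 1 h, then 5.32 and 5.17 at 2 h. In nuclei its FPKM was 4.50 and 3.56 at 0 h, 3.70 in replicate 2 at 1 h, then 4.58 and 4.47 at 2 h. There the nuclear libraries of 0 and 2 h overlapped. A predicted gene, Gm45371, overlaps Zfp703, and since it is not stated whether strand was used, their reads cannot be told apart.

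**Figure D3:**
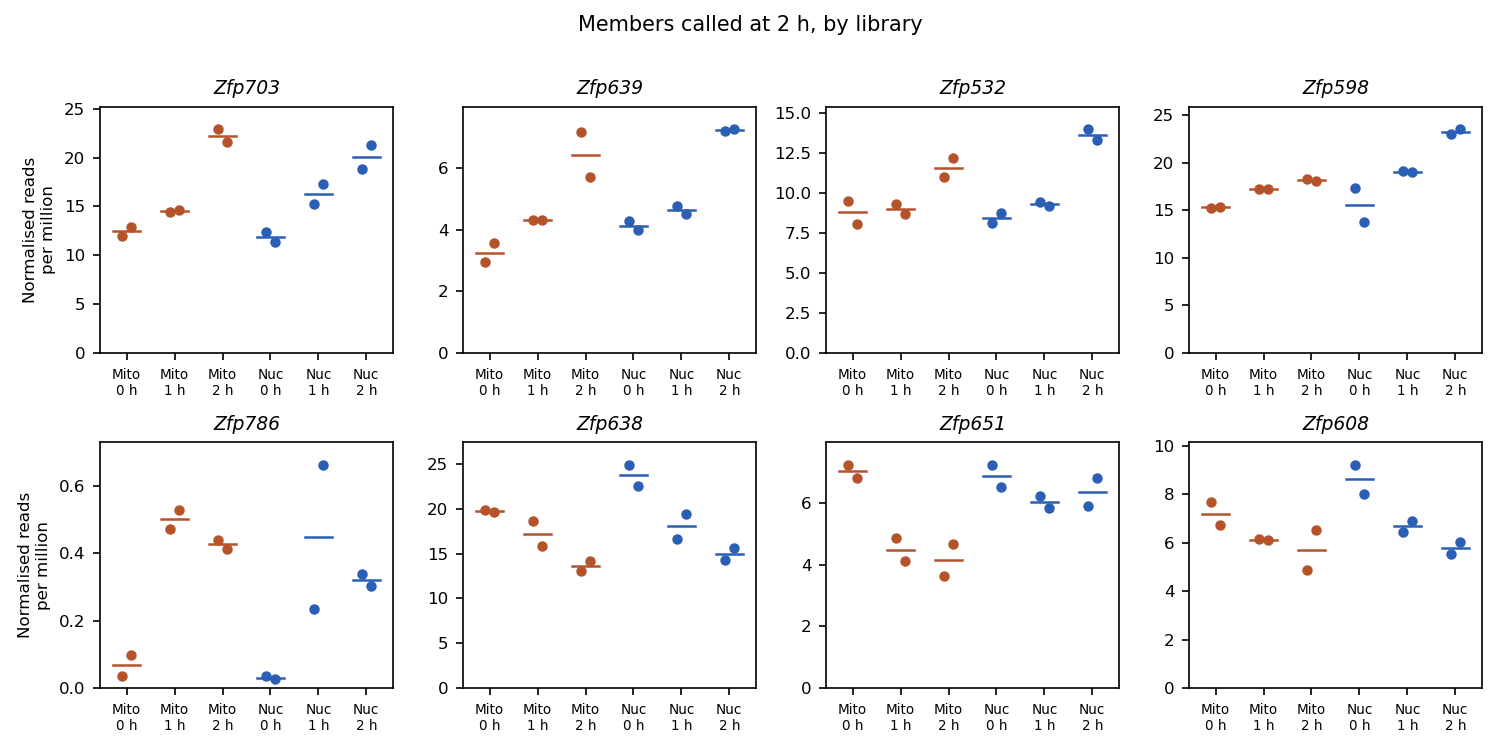
Normalised RPM (vertical axis, from 0) of 8 members called at 2 h in at least one fraction. Each point is 1 library, lines are means of 2, orange is mitochondria and blue nuclei; Zfp703 and Zfp639 are highest at 2 h in both fractions and Zfp638 lowest.

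Zfp532, which works with Zmynd8 in a chromatin complex, stood at 8.11 and 8.79 normalised RPM in nuclei at 0 h, 9.44 and 9.21 at 1 h, then 14.0 and 13.4 at 2 h. The nuclear libraries of 2 h lay above all others of that fraction. The rise was 0.70 ± 0.10 against 0 h (adjusted p = 0.0014) and 0.55 ± 0.10 against 1 h (adjusted p = 0.0156). Its rise in mitochondria at 2 h was 0.40 ± 0.10 (adjusted p = 0.0234). Without normalization, on the deposited scale, its 2 h differences were 0.09 in nuclei and 0.04 in mitochondria. Its partners in that complex, Zfp592 and Zfp687, stood at 0.08 and 0.19 in mitochondria and -0.01 and 0.14 in nuclei at 2 h, none past the threshold.

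Zfp507, whose human counterpart has been linked to neurodevelopmental disorders, rose at 1 h in mitochondria (0.37 ± 0.09, adjusted p = 0.0385), a call lost on the deposited scale (0.06, adjusted p = 0.826) and kept in 4 of the 12 fits that left out a library. At 2 h it rose by 0.38 ± 0.09 in mitochondria (adjusted p = 0.0234) and by 0.48 ± 0.09 in nuclei (adjusted p = 0.0077), with deposited-scale differences of 0.01 and -0.12. Zfp536, a repressor of neuronal differentiation genes, went from 8.43 and 9.03 normalised RPM at 0 h to 12.5 and 11.7 at 1 h in mitochondria, and stood at 10.3 and 10.2 at 2 h. The 1 h libraries lay above the others of the fraction, and the rise was 0.47 ± 0.09 (adjusted p = 0.0103; 0.15, adjusted p = 0.318, on the deposited scale). In nuclei the 1 h difference was 0.20 ± 0.09, which did not pass (adjusted p = 0.362).

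Each fraction had 1 fall in this list at 2 h. Zfp704, a relative of the human GLUT4 enhancer factor, fell by 0.31 ± 0.07 in mitochondria (adjusted p = 0.0116), from 23.2 and 22.2 normalised RPM to 18.1 and 18.3. Zfp608, known in mouse thymus for repressing the Rag genes, fell in nuclei from 9.23 and 8.03 to 5.53 and 6.03, by 0.58 ± 0.14 (adjusted p = 0.0236). The groups did not overlap in either case, and both also fell on the deposited scale, by 0.73 and 1.1. Zfp609, a close relative of Zfp608 and a regulator of cortical neuron migration in mice, was the deepest read of the list (mean 942 reads) and stood at -0.28 ± 0.08 in nuclei (adjusted p = 0.0531). Zfp521, which drives mouse embryonic stem cells toward a neural fate, had a mean of 11.3 reads and no change past the threshold. Of the rest, Zfp503, Zfp516, Zfp644, Zfp652, Zfp746 and Zfp827 passed in no time comparison.

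A list of 6 members was made for roles at the ribosome or in RNA handling. It includes Zfp638, which binds DNA as well as RNA, and Zfp706, described below for a role in stem cells. Of these 6 members, 3 rose and 1 fell at 2 h in mitochondria, and 2 rose and 1 fell in nuclei. Over all tested genes 4.66% rose and 6.78% fell in mitochondria, and 4.65% and 5.55% in nuclei. Among all tested genes of at least 100 mean reads, 8.77% and 8.63% rose, and the shares that fell are given below. Zfp830 of the list, with a mean of 88.1 reads, lies below that depth. By deposited values 1 rose and 1 fell in mitochondria, and none rose and 3 fell in nuclei. The 250 bases before the RefSeq start (GRCm38.p6, plus strand) are shown for 3 of them, of which 2 rose and the third fell. The windows were chosen as those of called members that overlap no annotated exon. They hold the GC box GGGCGG, bound by SP factors, and that of Zfp598 also the cAMP response element letters TGACGTC; both are in capitals, and the windows lie at chr17:24669437-24669686, chr15:25984116-25984365 and chr6:83914103-83914352.
Zfp598: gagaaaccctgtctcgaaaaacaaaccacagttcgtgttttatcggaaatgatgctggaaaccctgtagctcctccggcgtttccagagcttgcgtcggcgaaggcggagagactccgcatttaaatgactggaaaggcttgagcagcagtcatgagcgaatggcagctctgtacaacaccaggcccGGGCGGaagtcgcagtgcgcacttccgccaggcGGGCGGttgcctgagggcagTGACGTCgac
Zfp622: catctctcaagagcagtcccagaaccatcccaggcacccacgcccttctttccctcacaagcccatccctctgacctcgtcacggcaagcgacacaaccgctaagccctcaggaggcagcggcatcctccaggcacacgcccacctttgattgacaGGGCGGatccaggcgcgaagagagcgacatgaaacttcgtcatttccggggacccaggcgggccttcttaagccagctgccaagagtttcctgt
Zfp638: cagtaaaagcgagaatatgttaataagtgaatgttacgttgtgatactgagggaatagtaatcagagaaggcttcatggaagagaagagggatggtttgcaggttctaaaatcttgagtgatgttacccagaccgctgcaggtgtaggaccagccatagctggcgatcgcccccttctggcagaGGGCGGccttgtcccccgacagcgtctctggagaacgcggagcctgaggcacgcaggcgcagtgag
Such letters are common. In windows from 250 bases before to 50 after the start, searched on both strands, GGGCGG stood in 67 of 139 members with a RefSeq entry (48.2%) and in 35.9% of all 27025 promoters. TGACGTC stood in 7 members (5.04%) and 3.33% of all, CCGGAAG, the ETS letters, in 19 (13.7%) and 9.12%, GCGCATG, the NRF1 letters, in 7 (5.04%) and 4.04%, and AAGATGG, the YY1 letters, in 13 (9.35%) and 6.48%. These are counts with no test, and a match is not a binding site.

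Zfp593 encodes a small nuclear protein whose human counterpart joins the precursor of the large ribosomal subunit. It stood at 1.87 and 1.88 normalised RPM in mitochondria at 0 h, 2.88 and 3.68 at 1 h, then 4.69 and 4.12 at 2 h, while in nuclei it stood at 2.10 and 1.82, 2.43 and 4.85, and 3.59 and 4.28. The groups of 0 and 2 h did not overlap in either fraction, and the nuclear libraries of 1 h lay on either side of those of 2 h. The 2 h rise was 1.23 ± 0.26 in mitochondria (adjusted p = 0.0118) and 1.01 ± 0.26 in nuclei (adjusted p = 0.0325), and 0.93 (adjusted p = 0.0202) and 0.45 (adjusted p = 0.207) on the deposited scale. The nuclear call was also lost under median centring (0.97) and with a term for the 4 libraries that stood apart (0.86), and held in 4 of the 12 fits that left out a library. An overlapping gene, E130218I03Rik, may share its reads.

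Zfp598 is the ubiquitin ligase that marks collided ribosomes. In nuclei it stood at 17.3 and 13.8 normalised RPM at 0 h, 19.1 and 19.0 at 1 h, then 23.0 and 23.5 at 2 h, with no overlap between the times. The 2 h rise in nuclei was 0.59 ± 0.09 (adjusted p = 0.0022) and held when any one library was left out, while on the deposited scale the difference was 0.0016 (adjusted p = 0.990). In mitochondria the normalised 2 h difference was 0.25 ± 0.09 (adjusted p = 0.117). In the authors' transcript table the FPKM of Zfp598 in nuclei was 3.71 and 1.90 at 0 h and 3.17 and 2.54 at 2 h, which overlap. Zfp622, the counterpart of a yeast factor in maturation of the large ribosomal subunit, rose in mitochondria by 0.45 ± 0.11 at 1 h (adjusted p = 0.0295) and 0.60 ± 0.11 at 2 h (adjusted p = 0.0042), from 7.70 and 8.04 to 10.7 and 10.8 and then 11 and 13.0 normalised RPM. Its 2 h difference in nuclei was 0.21 ± 0.11 (adjusted p = 0.288), and that in mitochondria on the deposited scale 0.25 (adjusted p = 0.0756). Zfp706, a small protein that in mouse embryonic stem cells promotes exit from self-renewal, rose in mitochondria at 2 h by 0.46 ± 0.12 (adjusted p = 0.0295; 0.07 on the deposited scale).

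Zfp638 encodes the DNA- and RNA-binding protein NP220, which in human cells silences unintegrated retroviral DNA together with the HUSH complex. Its normalised RPM in nuclei was 24.9 and 22.5 at 0 h, 16.6 and 19.4 at 1 h, then 14.3 and 15.6 at 2 h, and in mitochondria 19.8 and 19.7, 18.6 and 15.8, and 13.1 and 14.1. In both fractions the times did not overlap and the order was 0, 1, 2 h. The fall at 2 h was 0.67 ± 0.10 in nuclei (log2 fold change -0.67, adjusted p = 0.0019) and 0.54 ± 0.10 in mitochondria (-0.54, adjusted p = 0.0063), and -1.22 and -0.94 on the deposited scale. Within the libraries outside the 4 that stood apart, again with 1 library at 0 h in each fraction, the differences were -0.59 and -0.54. The mitochondrial call was lost without mitochondria 2 h replicate 1.

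Zfp639, known in human as ZASC1, a transcriptional activator that binds retroviral promoters, rose in both fractions. It stood at 2.94 and 3.57 normalised RPM in mitochondria at 0 h, 4.33 in both libraries at 1 h, then 7.18 and 5.71 at 2 h. In nuclei it stood at 4.28 and 3.99, 4.79 and 4.52, and 7.20 and 7.26. No library of 2 h overlapped an earlier one of its fraction, and the rise against 0 h was 0.98 ± 0.14 in mitochondria (adjusted p = 0.0011) and 0.81 ± 0.14 in nuclei (adjusted p = 0.0036). Both calls held when any one library was left out, and on the deposited scale the differences were 0.67 (adjusted p = 0.0049) and 0.24 (adjusted p = 0.216). Across the 12 libraries the profiles most like that of Zfp703 were those of Zfp593 (Pearson's r = 0.89), Zfp639 (0.88) and Zfp623 (0.84), a description of libraries that share the time course and not a test.

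Zfp651, known in human as ZBTB47, was lower in mitochondria after the switch. It stood there at 7.23 and 6.81 normalised RPM at 0 h, 4.85 and 4.12 at 1 h, then 3.64 and 4.67 at 2 h, so that 0 h lay above the later times, which overlapped. The falls were -0.65 ± 0.14 at 1 h (adjusted p = 0.0192) and -0.77 ± 0.14 at 2 h (adjusted p = 0.0054), and -1.0 and -1.15 on the deposited scale. In nuclei it stood at 7.23 and 6.51, 6.20 and 5.83, and 5.90 and 6.79, with no time comparison past the threshold. The interaction of fraction and time was not past the threshold for it, nor for any other member. Reads of the overlapping E530011L22Rik cannot be told apart from its own.

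Further falls in nuclei at 2 h were those of Zfp654 (-0.54 ± 0.13, adjusted p = 0.0210), Zfp664 (-0.29 ± 0.07, adjusted p = 0.0252), Zfp971 (-1.19 ± 0.33, adjusted p = 0.0422) and Zfp667 (-1.30 ± 0.37, adjusted p = 0.0450). Each also fell on the deposited scale, by 0.86 or more. Zfp654 stood at 4.74 and 4.14 normalised RPM in nuclei at 0 h, 4.75 and 4.26 at 1 h, then 3.12 and 2.97 at 2 h. Its 2 h difference from 1 h (-0.56 ± 0.13, adjusted p = 0.0461) passed in none of the 12 fits that left out a library, and was -0.38 (adjusted p = 0.210) on the deposited scale; it was also lost without a filter, with the term for the 4 libraries and with voom. The fall of Zfp971 rested on under 1 normalised RPM in each nuclear library.

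Zfp786, with 11 fingers and the largest rise of any called member, was read thinly and is named after its values were seen. It had 1 and 3 reads in mitochondria at 0 h, 13 and 17 at 1 h, then 13 and 12 at 2 h, and in nuclei 3 and 1, 8 and 19, and 13 and 13. Every later library had more reads than any library of 0 h. From summed RPM the ratio to 0 h was 6.77 (exact 95% interval 2.39 to 26.4) at 1 h and 5.57 (1.92 to 22.0) at 2 h in mitochondria, and 8.13 (2.83 to 32.0) and 6.72 (2.33 to 26.5) in nuclei, intervals that cover counting error only. The limma changes were 3.03, 2.80, 3.65 and 3.35 in that order (adjusted p = 0.0173, 0.0168, 0.0178 and 0.0071), and it was the only member called at 1 h in both fractions, and the calls stood on the deposited scale too. It lies in a cluster of 4 on chromosome 6 with Zfp956, Zfp777 and Zfp746, of which Zfp777 rose in nuclei at 2 h by 0.58 ± 0.13 (adjusted p = 0.0166; -0.00021 on the deposited scale), while neither Zfp956 nor Zfp746 passed at 2 h.

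The other shared rises were those of Zfp623, by 0.79 ± 0.17 and 0.73 ± 0.17 in mitochondria and nuclei at 2 h (adjusted p = 0.0110 and 0.0176), of Zfp768, a member whose human counterpart binds ancient repeats, by 0.60 ± 0.14 and 0.53 ± 0.14 (adjusted p = 0.0179 and 0.0354), and of Zfp948, by 0.66 ± 0.13 and 0.47 ± 0.13 (adjusted p = 0.0088 and 0.0447). None of these passed on the deposited scale, and the nuclear differences of Zfp768 and Zfp948 were -0.0049 and -0.10. The rises in mitochondria alone at 2 h included Zfp930 (0.80 ± 0.19, adjusted p = 0.0167; 0.52, adjusted p = 0.0620, on the deposited scale) and Zfp617 (0.84 ± 0.23, adjusted p = 0.0333; 0.55, adjusted p = 0.0999), both from clusters on chromosome 8, beside Zfp580 and Zfp869. Zfp959 rose there already at 1 h (1.33 ± 0.31, adjusted p = 0.0277) and stood at 1.34 ± 0.31 at 2 h (adjusted p = 0.0172), on the deposited scale too. Between 1 and 2 h, Zfp948 rose in mitochondria by 0.68 ± 0.13 (adjusted p = 0.0174) and Zfp865 in nuclei by 0.47 ± 0.10 (adjusted p = 0.0261). In nuclei alone Zfp523 and Zfp810 rose besides Zfp598 and Zfp777.

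By the signature searched, 5 of 92 KRAB members rose and none fell at 2 h in mitochondria, against 11 and 3 of the 74 others. The medians were 0.18 and 0.21. In nuclei 2 KRAB members rose and 2 fell, against 11 and 4 of the others, with medians of -0.09 and 0.14. The lower read depth of KRAB members goes with these counts, and its part was not tested. As background, limma called 4.66% of the 21078 tested genes as rises and 6.78% as falls in the mitochondrial comparison. For nuclei the background was 4.65% and 5.55%. Any KRAB domain that the signature missed is counted among the 74. Of 4 members with known retroelement or imprinted-gene targets none passed in any comparison. Zfp809, which silences murine leukaemia viruses, came nearest in mitochondria at 2 h (0.56 ± 0.18, adjusted p = 0.0653), and Zfp568, the repressor of a placental Igf2 transcript, stood at -0.12 ± 0.13.

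Of 29 tested genes of the machinery through which KRAB proteins silence, which are not members, 2 rose and 4 fell in mitochondria at 2 h (6.90% and 13.8%) and 2 rose and 8 fell in nuclei (6.90% and 27.6%). Among all tested genes with at least 100 mean reads, 8.77% rose and 13.9% fell in mitochondria, and 8.63% rose and 11.6% fell in nuclei. By deposited values none of the 29 rose, while 17 fell in mitochondria and 22 in nuclei. Trim28 itself stood at -0.04 ± 0.08 in mitochondria (adjusted p = 0.806) and 0.09 ± 0.08 in nuclei (adjusted p = 0.554), and Setdb1 at 0.08 ± 0.08 (adjusted p = 0.632) and 0.11 ± 0.08 (adjusted p = 0.485). The calls in nuclei included Atrx, a chromatin remodeller (-0.56), Smarcad1, a remodeller (-0.57), and Uhrf1, a reader of hemimethylated DNA (0.47).

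Between the preparations, over the 3 times, 7 members differed. Of these 2 were higher in mitochondria and 5 lower, or 1.2% and 3.01%, beside 4.43% and 5.19% of all tested genes. On the deposited scale the counts were 2 and 17, and after median centring 16 and 4, so the split of directions depends on the scaling. Zfp536 was higher in mitochondria at every time, with no overlap between the preparations at 0, 1 or 2 h. The difference was 0.48 ± 0.05 (adjusted p = 2.0e-04), with 8.43 and 9.03 normalised RPM against 7.16 and 6.39 at 0 h, and 0.46 on the deposited scale. Zfp704 was also higher, by 0.22 ± 0.04 (adjusted p = 0.0050), again without overlap at any time.

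Zfp692, known in human as an AMPK-responsive transcription factor, was lower in mitochondria. It stood at 2.28 and 2.40 normalised RPM against 3.48 and 3.52 in nuclei at 0 h, 2.46 and 2.06 against 3.65 and 3.35 at 1 h, and 2.78 and 1.97 against 3.47 and 3.62 at 2 h. No library of mitochondria reached the lowest of nuclei, and the difference was -0.60 ± 0.10 (adjusted p = 0.0037; -0.71 on the deposited scale). Zfp672 (-0.57 ± 0.13, adjusted p = 0.0165) and Zfp945 (-0.52 ± 0.12, adjusted p = 0.0156) did not overlap at any time either. Zfp950 (-0.55 ± 0.13, adjusted p = 0.0202) overlapped at 1 h, and Zfp651 (-0.34 ± 0.08, adjusted p = 0.0239) at 0 h, where its difference was 0.03. Of 7 RNAs known to stay in nuclei, 5 were lower in mitochondria, Neat1 by 1.27 and Malat1 by 0.80 on the log2 scale, sizes above those of every member called.

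**Figure D4:**
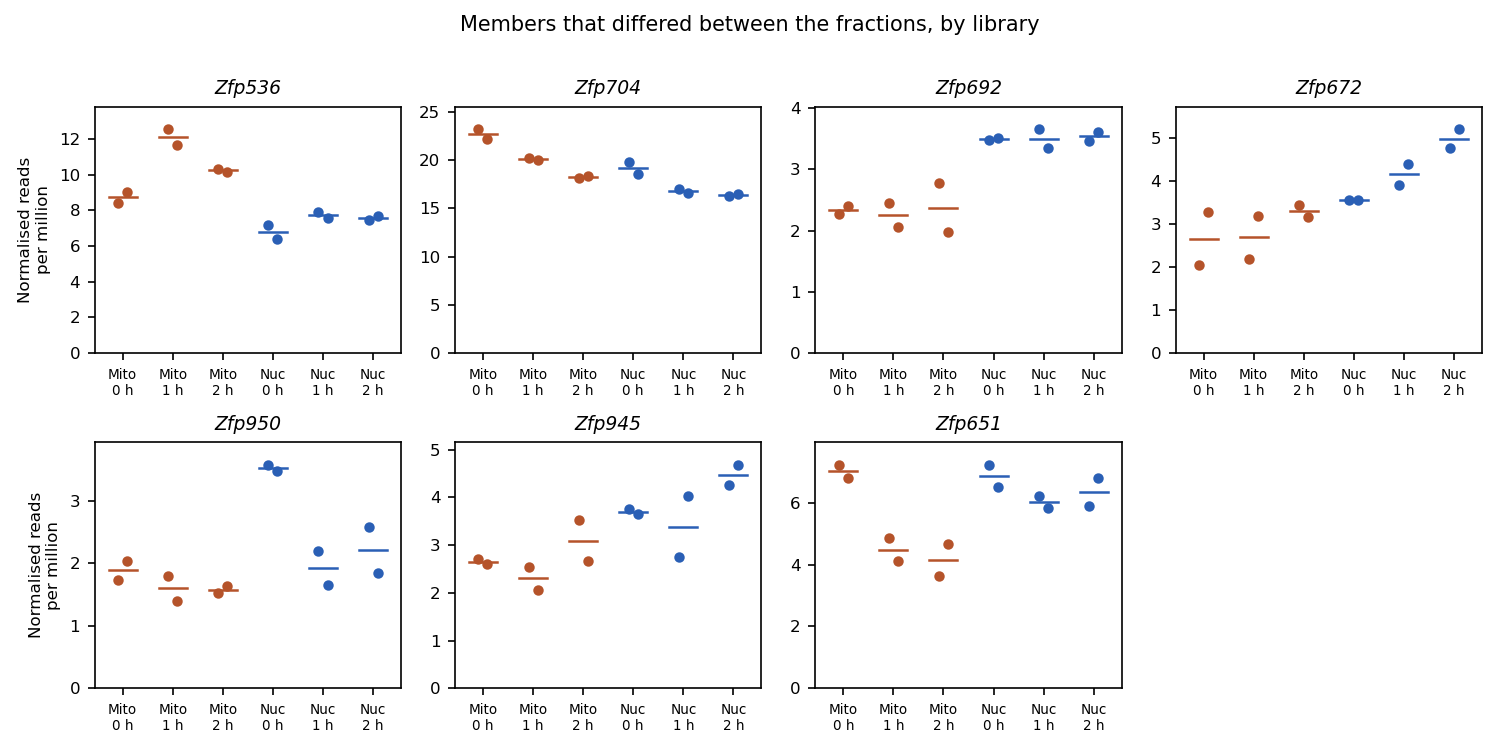
Normalised RPM (vertical axis, from 0) of the 7 members that differed between mitochondria (orange) and nuclei (blue), each point 1 library and each line the mean of 2. Zfp536 and Zfp704 are higher in mitochondria at each time, and Zfp692 is lower in each.

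Whether the time course differed between the preparations was tested as an interaction. No member passed at 1 h (background 0.327% higher in mitochondria and 0.892% lower) or at 2 h (0.00474% and 0%), with limma. At an unadjusted p under 0.05 stood 14 members at 1 h and 19 at 2 h, with no share of all tested genes given beside them. Limma voom also called 0 at both times. The smallest p at 1 h was that of Zfp644, mutated in human high myopia (0.49, adjusted p = 0.148), and at 2 h that of Zfp712 (2.31, adjusted p = 0.240). By deposited values 10 members were higher in mitochondria by this test at 1 h and none at 2 h. A change called in 1 preparation and not in the other is therefore not shown to differ between them.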

How the data were processed

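RNA from isolated mitochondria and nuclei of C17.2 cells was depleted of ribosomal RNA and made into libraries with the NEBNext Ultra II kit, per the labels' protocols. The submitters' processing notes name HISAT2, StringTie, edgeR, GRCm38 and mm10, without versions. The deposited gene table holds log2 values, RPM (reads scaled to the library's total), made with SeqMonk; the authors' lowest value in a library corresponds to 0.9 read, and whole reads were recovered within 0.05 read. The deposited transcript table holds FPKM for 11 libraries, per the file headers; nuclei 1 h replicate 1 was not used there. Of 35373 entries, 52 repeats were left out.

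The 21078 genes that passed the floor in 2 or more libraries were quantile normalised and tested with limma 3.58.1 in R 4.3.3 (a mean per group over 12 libraries, variance trend, robust moderation), with Benjamini-Hochberg adjustment over all tested genes within each of 9 contrasts and a threshold of 0.05. Errors after ± are limma standard errors unless SD is written. The fit was also run on simulated reads with known changes in nuclei at 2 h alone, and the outcome is not given here. That simulation held neither the 4 libraries that stood apart nor the fall of the share of reads in genes. Normalised RPM is 2 to the power of the quantile-normalised value. Fingers and the KRAB signature were searched in translations of the longest GENCODE M21 coding sequence. Promoters are from RefSeq (GRCm38.p6), and the first listed start of a gene was used. The members, lists and tests were chosen with earlier results of these data known. Named were, per contrast, the 5 largest called rises and falls among members at or above the median level, the role lists, the 5 highest and the lowest level, and the 3 profiles most like that of the member of smallest p; others named were chosen after their values were seen. Alternatives covered scaling, filters, added reads, a term for or removal of the 4 libraries that stood apart, the replicate number, limma voom and each library left out.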

Additional observations from a re-analysis of the deposited data

How the results depend on the processing

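Counts of members past the threshold are given as rises and falls, and causes were not tested. On the deposited scale they were 2 and 23 (1 h in mitochondria, against 0 h), 6 and 18 (2 h in mitochondria), 1 and 97 (1 h in nuclei), 2 and 55 (2 h in nuclei), 5 and 0 (nuclei, 2 h against 1 h) and 2 and 17 (between fractions), with 10 rises in the 1 h interaction. There Zfp703 in nuclei at 1 h turned to -0.25. Median centring gave, in the same order, 5 and 4, 15 and 9, 4 and 1, 11 and 10, 3 and 4, and 16 and 4, with 3 and 5 in mitochondria from 1 to 2 h. Without a filter, which tests more genes, they were 1 and 0, 5 and 2, 0 and 0, 6 and 4, 0 and 0, and 2 and 1, with 1 and 0 in mitochondria from 1 to 2 h. Requiring 6 libraries gave 9 and 3, 21 and 4, 2 and 7, 16 and 9, 4 and 1, and 3 and 8, with 5 and 1. Adding 5 reads gave 4 falls in nuclei at 1 h, limma voom 3 there and 0 from 1 to 2 h, and a term for the 4 libraries that stood apart 3 and 0, with 1 rise in the 2 h interaction. The 8 other libraries alone, with fewer samples, gave 0 in every comparison, while no named change reversed there. Leaving out each library gave ranges of 0 to 6 rises and 0 to 3 falls (mitochondria, 1 h), 4 to 17 and 2 to 5 (2 h), 1 to 3 and 0 to 1 (2 h against 1 h), 0 to 3 and 0 to 3 (nuclei, 1 h), 5 to 13 and 1 to 7 (2 h), 0 to 4 and 0 to 0 (2 h against 1 h), and 2 to 4 and 1 to 7 between fractions. The lowest count of 2 h rises in mitochondria came without mitochondria 2 h replicate 2, and the 5 in nuclei without nuclei 0 h replicate 2 or nuclei 2 h replicate 1. Replicate numbers did not pair the samples (correlations -0.21 to 0.23); the replicate block gave 17 rises and 3 falls in mitochondria after 2 h, 11 and 4 in nuclei, and changed no count by over 1.5 times. Count tests listed for recovered reads were not run because the table's unit is log2; limma voom was added after seeing the data. Members with under 100 mean reads (111 of 166) limit what could be called.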

Other observations

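In the authors' transcript table the FPKM of Zfp598 in mitochondria at 1 h was 0.139 in replicate 1 and 2.05 in replicate 2, while its reads in the gene table were 518 and 647.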
